A study of Mus musculus with 18 samples.

Results

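The 10 genes described here mark brown and white adipocytes and were picked by name from the 32675 genes measured in whole kidneys. They are Ucp1, Cidea, Elovl3, Adrb3, Adipoq, Lep, Cfd, Plin1, Cidec and Fabp4, and all of them were detected and passed the filter on low counts. Their levels are given mouse by mouse in 18 right kidneys, 6 in each of 3 groups of wild type male C57BL/6 mice. The Ctrl group was handled daily without defeat. The StressPbs and StressFlx groups (PBS and FLX in the study's text) went through chronic social defeat stress, meeting a CD-1 aggressor for 10 min on each of 14 days, and were given daily intraperitoneal phosphate-buffered saline or fluoxetine, an inhibitor of serotonin reuptake, at 10 mg per kg. The labels give an age of 6 weeks for all of them, which the study's methods state for the mice as purchased. Acclimatization and the defeat period followed, so the mice were older when the kidneys were taken. No unstressed mice received fluoxetine, so the StressFlx group can be set beside stressed mice on vehicle and beside undefeated mice, but the drug alone was not measured. The study left out 1 unnamed StressPbs mouse for excessive inflammatory genes. It was taken here as StressPbs replicate 6, which had 49.2 FPKM of Lcn2, so that fitted differences rest on 17 mice, while levels are shown for all 18. That mouse was the lowest of the 6 StressPbs mice for every fat gene except Cidec and Fabp4.

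Adipocytes store triglyceride in droplets and secrete hormones. White adipocytes hold 1 large droplet and make leptin, whereas brown adipocytes hold many small droplets and burn fat for heat through the mitochondrial uncoupler encoded by Ucp1. A fat pad surrounds the mouse kidney, and in rodents it can contain brown adipocytes near the hilum. Sympathetic nerves activate both kinds of adipocytes through the receptor encoded by Adrb3. The sources used here do not give how the kidneys were cleared of surrounding fat, and in bulk RNA a larger number of adipocytes cannot be told apart from more RNA of these genes per adipocyte.

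The kidney's own genes were abundant in every library. Umod, the urinary protein gene of the thick ascending limb, had between 695 and 1259 FPKM (fragments scaled to transcript length and library size, which can be compared between genes) in the 18 mice. The summed level of 7 tubule and glomerulus markers was between 1814 and 2414 FPKM. Total estimated counts were 72149987 to 79061296 in 14 mice and 48928823 to 52073640 in StressFlx replicates 3 to 6, which makes genes with few counts less precise in those 4 mice.

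The summed level of the 10 fat genes spanned a far wider range than that of the kidney markers. It was lowest in Ctrl replicate 5, at 14.5 FPKM, and highest in StressPbs replicate 5, at 1569 FPKM. StressFlx replicate 5 came second with 1507 FPKM, and the next mouse, StressFlx replicate 2, had 361 FPKM. Medians of the sum were 47.2 FPKM in the Ctrl group, 148 in the StressPbs group and 113 in the StressFlx group (n = 6 each), and the 3 groups overlapped. StressPbs replicate 5 and StressFlx replicate 5 were the highest mice for 8 of the 10 genes, with Ucp1 and Lep as the exceptions. Between 53.1% (Fabp4) and 72.7% (Lep) of a gene's sum over the 18 mice came from its 2 highest mice. Among undefeated mice, Ctrl replicates 1 and 6 were the highest for 8 of the 10 genes, and Ctrl replicate 5 was the lowest, alone or tied, among all 18 mice for 8 of the 10.

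**Figure D1:**
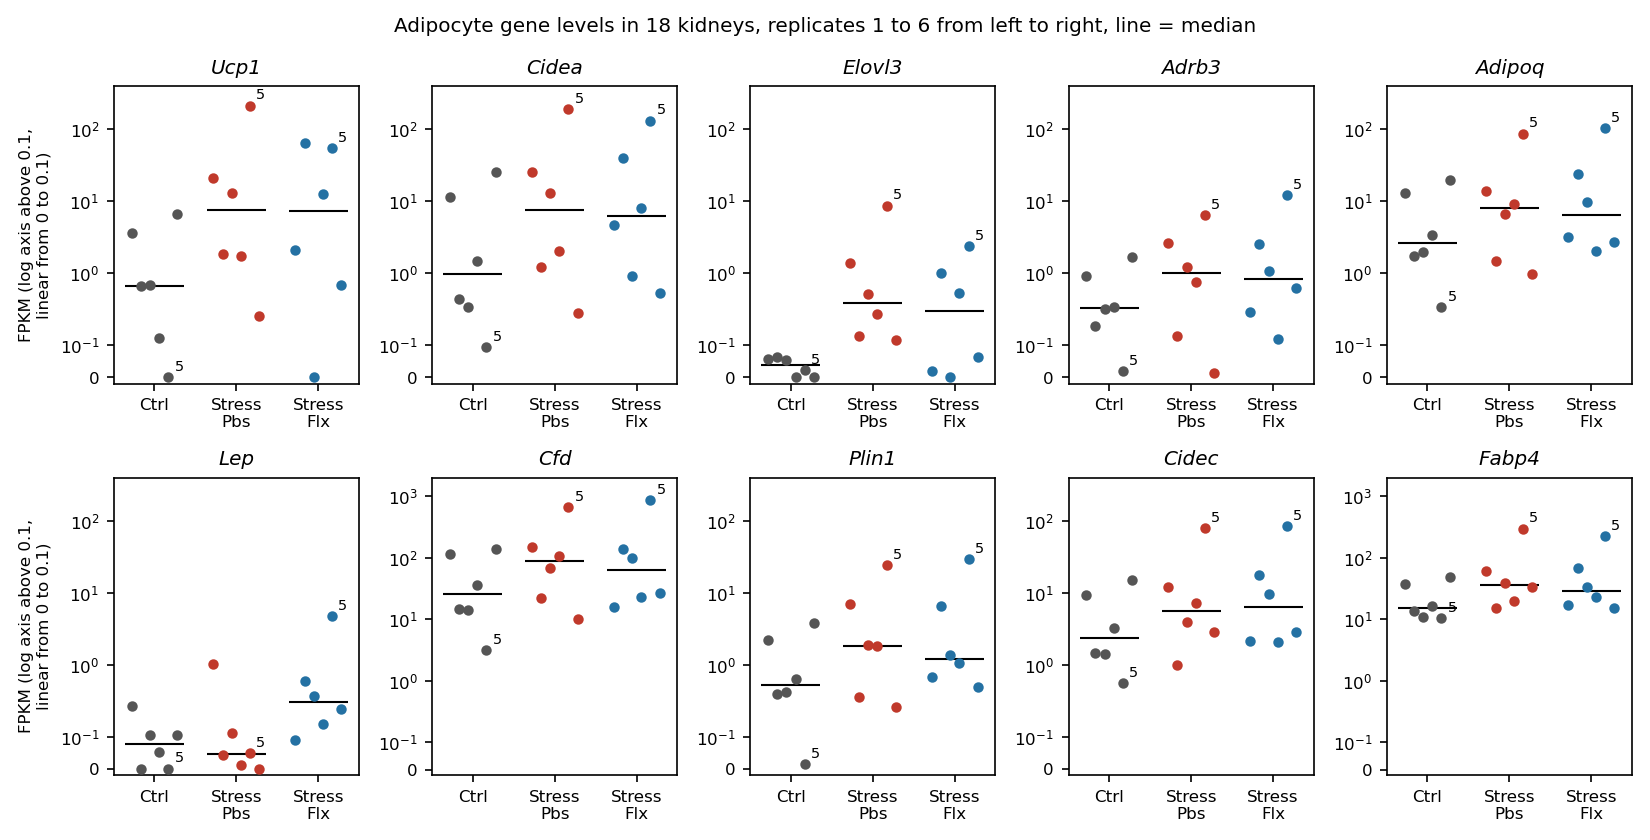
FPKM of the 10 fat genes in each kidney, on a vertical axis that is logarithmic above 0.1 and linear below it, with points for replicates 1 to 6 from left to right in Ctrl, StressPbs and StressFlx, the digit 5 beside replicate 5, and a line at each group's median. Replicate 5 of both stressed groups stands at the top of 8 of the 10 panels, and for Elovl3 every StressPbs point lies above every Ctrl point.

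Relative to the median of the 18 mice, the highest mouse had 109.1 times the level of Ucp1, 97.0 times that of Elovl3 and 57.4 times that of Cidea, all known from brown fat, and 45.2 times that of Lep. Ucp1 (ENSMUSG00000031710, chromosome 8, 83290352 to 83298452, GRCm38) encodes the protein that lets protons back into the mitochondrial matrix without making ATP. In replicates 1 to 6, it had 3.58, 0.657, 0.683, 0.127, 0 and 6.57 FPKM in the Ctrl group. The StressPbs mice had 20.8, 1.82, 13.2, 1.75, 214 and 0.251 FPKM, and the StressFlx mice had 2.09, 65.0, 0, 12.6, 54.6 and 0.676 FPKM. The groups overlapped: 3 of 6 StressPbs and 3 of 6 StressFlx mice lay above every Ctrl mouse, while StressPbs replicate 6 and StressFlx replicate 3 lay among or below the lowest Ctrl mice. Ucp1 had a count of 0 in Ctrl replicate 5 and StressFlx replicate 3, which says only that it was not detected at this depth. The mean over 5 StressPbs mice was 50.2 ± 91.7 FPKM (SD), against 1.94 ± 2.62 (SD, n = 6) in the Ctrl group and 22.5 ± 29.4 (SD, n = 6) in the StressFlx group. The spread within each group exceeded its mean.

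Cidea (ENSMUSG00000024526, chromosome 18, 67343604 to 67367785), a lipid droplet protein gene of brown adipocytes, went with Ucp1 in most mice. In replicate order its levels were 11.4, 0.436, 0.338, 1.50, 0.0945 and 25.8 FPKM in the Ctrl group, 25.3, 1.21, 13.2, 2.00, 190 and 0.279 in the StressPbs group, and 4.63, 39.5, 0.913, 7.94, 132 and 0.524 in the StressFlx group. The groups overlapped, since Cidea of Ctrl replicate 6 was exceeded only in StressPbs replicate 5 and StressFlx replicates 2 and 5. Where Ucp1 was at least 1 FPKM, in 11 mice, the ratio of Cidea to Ucp1 was between 0.608 and 3.93.

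Elovl3 (ENSMUSG00000038754, chromosome 19, 46131897 to 46135694), an enzyme gene for the elongation of long fatty acids that is known from brown fat, liver and skin, was the only member whose StressPbs and Ctrl mice did not overlap. Its levels in the Ctrl group were 0.0551, 0.0615, 0.0541, 0, 0.0214 and 0 FPKM, from 10, 11, 10, 0, 4 and 0 counts. The StressPbs group had 1.40, 0.133, 0.510, 0.267, 8.71 and 0.117 FPKM, from 236, 24, 86, 49, 1462 and 20 counts. StressPbs replicate 5 alone held 56.8% of the sum over 18 mice, and yet the lowest StressPbs value, in replicate 6, was above the highest Ctrl value. In the StressFlx group the levels were 0.0206, 0.994, 0, 0.533, 2.39 and 0.0624 FPKM, with 4 of 6 mice above every Ctrl mouse and 3 of 6 below every one of the 5 StressPbs mice. Groups that do not overlap, with StressPbs higher, were seen for 1.77% of the 20251 genes tested with 5 StressPbs mice and for 1.32% with 6. Elovl3 was low in absolute terms, since the Ctrl values rested on at most 11 counts.

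Adrb3 (ENSMUSG00000031489, chromosome 8, 27225776 to 27250616), the adipocyte receptor for noradrenaline, had 0.908, 0.184, 0.321, 0.341, 0.0188 and 1.69 FPKM in the Ctrl group. It had 2.61, 0.136, 1.23, 0.760, 6.37 and 0.0132 FPKM in the StressPbs group and 0.292, 2.54, 1.07, 0.123, 12.3 and 0.617 FPKM in the StressFlx group. The lowest and the highest mouse of all were therefore both stressed mice, StressPbs replicate 6 and StressFlx replicate 5.

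Adipoq (ENSMUSG00000022878, chromosome 16, 23146536 to 23158028) encodes adiponectin, a hormone made by brown and white adipocytes alike. Its levels were 13.2, 1.74, 1.97, 3.37, 0.334 and 19.9 FPKM in the Ctrl group, 13.9, 1.47, 6.67, 9.23, 87.4 and 0.963 in the StressPbs group, and 3.20, 23.6, 9.87, 2.02, 103 and 2.73 in the StressFlx group. Apart from StressPbs replicate 5 and StressFlx replicates 2 and 5, every stressed mouse lay within the range of the Ctrl group. The means were 6.76 ± 7.95 FPKM (SD, n = 6) in the Ctrl group, 23.7 ± 35.9 over 5 StressPbs mice and 24.1 ± 39.5 (SD, n = 6) in the StressFlx group.

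Lep (ENSMUSG00000059201, chromosome 6, 29060220 to 29073877), the leptin gene and the member most particular to white fat, was the lowest of the 10 in mean level over 18 mice (0.445 FPKM). The Ctrl mice had 0.267, 0, 0.106, 0.0507, 0 and 0.105 FPKM, and the StressPbs mice had 1.04, 0.0412, 0.114, 0.0123, 0.0485 and 0 FPKM. The StressFlx mice had 0.0890, 0.598, 0.364, 0.148, 4.78 and 0.241 FPKM. StressFlx replicate 5 held 59.7% of the sum over all mice, and 3 of 6 StressFlx mice lay above every Ctrl mouse. The mice highest in Adipoq parted for Lep, because StressPbs replicate 5 had 14 counts of Lep against 940 in StressFlx replicate 5.

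Cfd, Plin1, Cidec and Fabp4 are genes that brown and white adipocytes share. Cfd (ENSMUSG00000061780, chromosome 10, 79890853 to 79892655) encodes adipsin, a complement protease secreted by fat cells, and had the highest mean of the members, 139 FPKM over 18 mice. It was between 3.11 and 139 FPKM in the Ctrl group (median 25.2), between 10.1 and 664 in the StressPbs group (median 87.2) and between 15.9 and 858 in the StressFlx group (median 61.9, n = 6 each). Plin1 (ENSMUSG00000030546, chromosome 7, 79720218 to 79732835), which coats the lipid droplet, was between 0.0142 and 3.85 FPKM, between 0.254 and 24.0 and between 0.484 and 29.2 in the same order of groups. Cidec (ENSMUSG00000030278, chromosome 6, 113424634 to 113435760), which makes small droplets fuse, was between 0.559 and 15.2 FPKM, between 0.997 and 78.9 and between 2.10 and 84.6. In all of these genes the Ctrl range covered the lowest stressed mice and most of the others. Fabp4 (ENSMUSG00000062515, chromosome 3, 10204088 to 10208576), a fatty acid carrier that capillary endothelium also expresses, had the highest floor of the 10. No mouse had less than 10.3 FPKM of Fabp4, and its ranges were 10.3 to 48.4 FPKM in the Ctrl group, 15.3 to 296 in the StressPbs group and 15.0 to 226 in the StressFlx group.

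**Figure D2:**
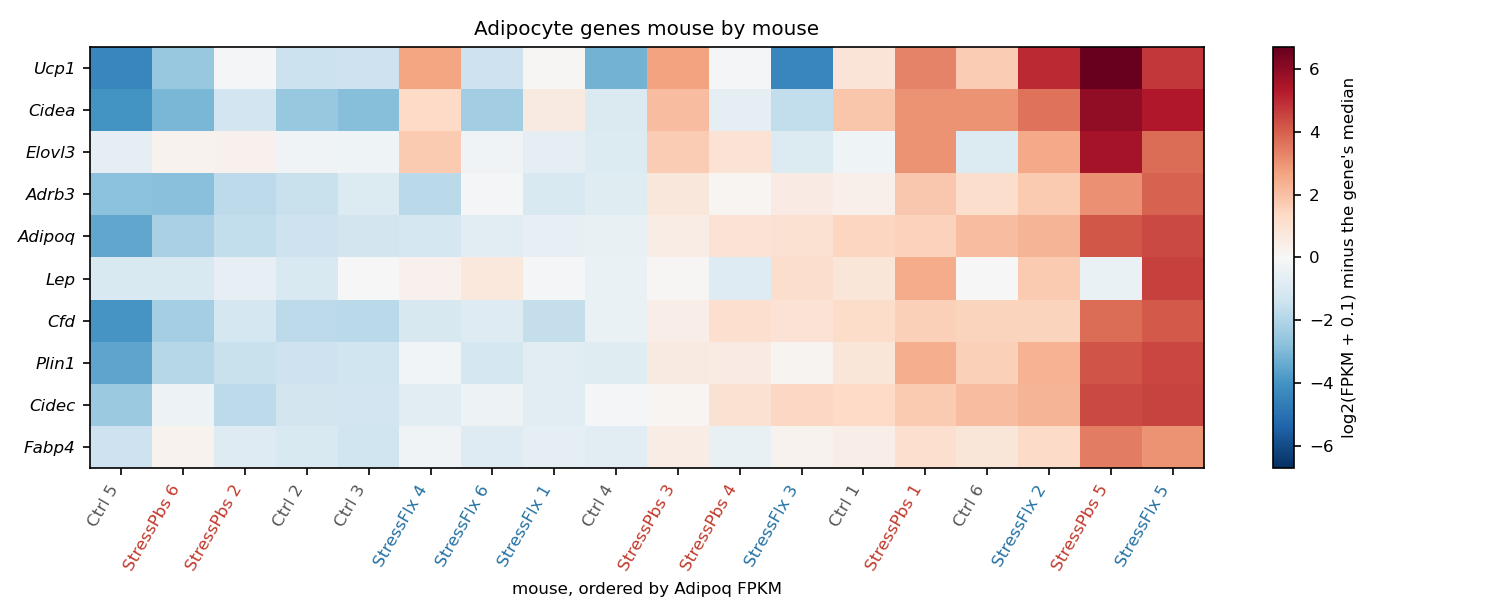
Each of the 10 fat genes (vertical) in each of the 18 kidneys (horizontal, ordered by Adipoq FPKM from left to right, label colour giving the group), coloured by log2(FPKM + 0.1) minus that gene's median. Cfd, Plin1, Cidec and Adrb3 grade from blue to red with Adipoq, while Ucp1 in StressFlx replicates 3 and 4 and Lep in StressPbs replicate 5 leave that order.

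In the 16 mice with at least 1 FPKM of Adipoq, Cidec and Cfd kept the narrowest proportions to Adipoq of the members. In these mice the ratio of Cidec to Adipoq was between 0.589 and 1.04, a 1.77-fold range. That of Cfd to Adipoq was between 4.96 and 14.9, a 2.99-fold range. The ratios of Adrb3, Plin1 and Fabp4 to Adipoq ranged over 3.70-fold, 3.74-fold and 5.48-fold. That of Cidea ranged over 42.6-fold. In all 18 mice, with 0.1 added to each FPKM, the range of Cidec to Adipoq was wider, at 4.63-fold. On that scale Cfd had 2.89-fold, Plin1 3.67-fold, Adrb3 3.70-fold, Fabp4 14.8-fold and Cidea 37.4-fold. Over the 18 mice, Pearson's r of log2(FPKM + 0.1) with Adipoq was 0.984 for Cfd, 0.975 for Plin1, 0.973 for Cidec and 0.968 for Adrb3, which were the 4 genes closest to Adipoq of 18028. After the group means were removed these values were between 0.965 and 0.987. The same coefficient was 0.892 for Cidea, 0.889 for Fabp4, 0.754 for Ucp1, 0.667 for Elovl3 and 0.640 for Lep. Without StressPbs replicate 5 and StressFlx replicate 5, it fell to 0.341 for Elovl3 and stayed between 0.945 and 0.971 for Cfd, Plin1, Cidec and Adrb3. These coefficients describe 18 kidneys that share their libraries and depth between genes.

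The proportion of Ucp1 to Adipoq varied from mouse to mouse. In replicate order it was 0.271, 0.378, 0.346, 0.0377, 0 and 0.330 in the Ctrl group. In the StressPbs group it was 1.50, 1.24, 1.98, 0.189, 2.45 and 0.261, and in the StressFlx group 0.653, 2.75, 0, 6.22, 0.531 and 0.247. StressFlx replicate 3, with 9.87 FPKM of Adipoq and no Ucp1, and StressFlx replicate 4, with 2.02 FPKM of Adipoq and 12.6 of Ucp1, were thus the extremes within 1 group. On the scale of log2 ratios with 0.1 added to each FPKM, the StressPbs mean was 0.16 ± 1.45 (SD, n = 5) and the Ctrl mean -2.03 ± 0.98 (SD, n = 6), a difference of 2.19 with 4 of 5 StressPbs mice above every Ctrl mouse. The exact two-sided permutation test gave p = 0.0238, which became 0.214 after Benjamini-Hochberg adjustment over the 9 tests of 3 ratios in 3 comparisons. The difference therefore did not pass the threshold of 0.05. Without StressPbs replicate 4, the mouse not above every Ctrl mouse, it was 2.81 (exact permutation test, adjusted p = 0.0429). No other mouse left out in turn brought it under the threshold (same test, adjusted p of 0.107 to 0.471). The highest of these came without StressPbs replicate 5, where the difference was 1.91. With all 18 mice, or with a pseudocount of 1, the adjusted p of that test was 0.351. The log2 ratio of Ucp1 to Adipoq in the StressFlx group, -0.996 ± 3.21 (SD, n = 6), spread across both other groups.

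The proportion of Lep to Adipoq separated the 2 richest mice. It was 0.000555 in StressPbs replicate 5 and 0.0465 in StressFlx replicate 5, while Ucp1 to Adipoq was 2.45 in the former and 0.531 in the latter. On the log2 scale the mean of Lep to Adipoq was -4.33 ± 1.54 (SD, n = 6) in the Ctrl group, -5.53 ± 2.37 (SD, n = 5) in the StressPbs group and -4.03 ± 0.81 (SD, n = 6) in the StressFlx group. None of the 3 differences passed, and neither did those of Elovl3 to Ucp1, with adjusted p between 0.690 and 0.900 in exact permutation tests for these 6 comparisons.

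**Figure D3:**
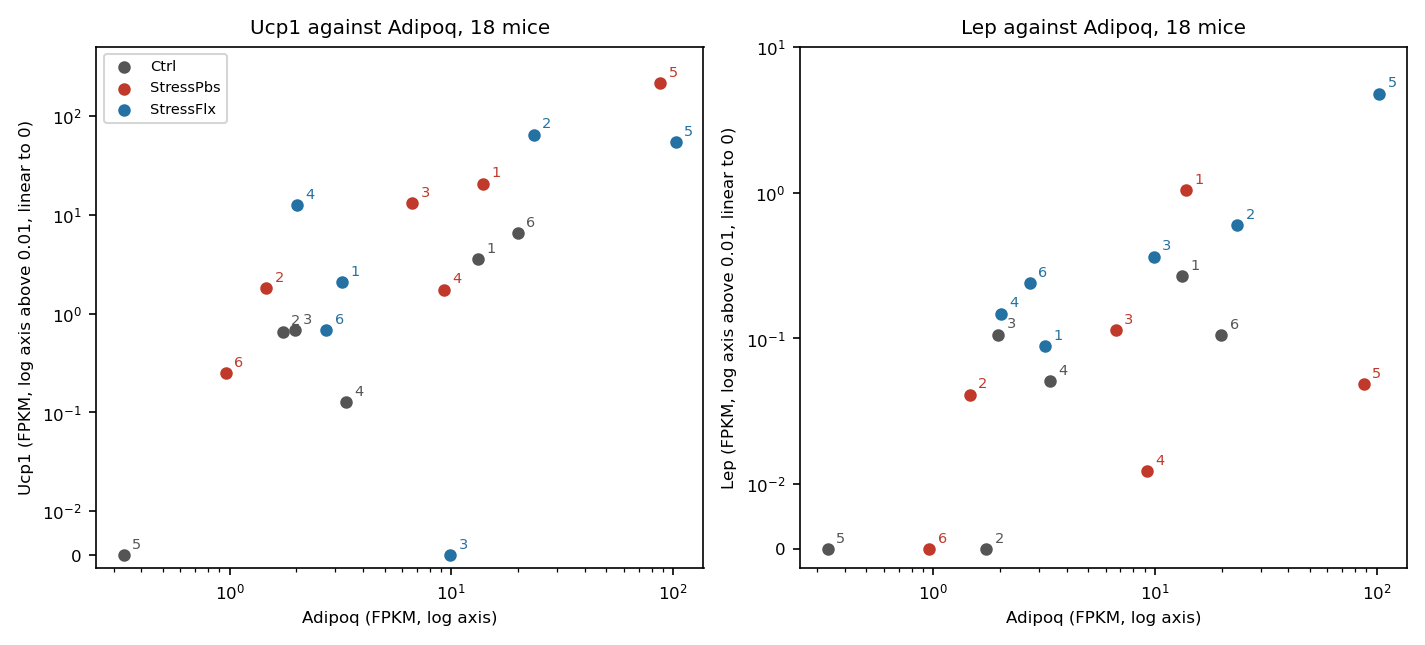
Ucp1 (left) and Lep (right) against Adipoq in the 18 kidneys, in FPKM on axes that are logarithmic above 0.01, each point a mouse with its replicate number and the colour of its group. StressPbs replicate 5 is highest in Ucp1 with little Lep, StressFlx replicate 5 is highest in Lep, and StressFlx replicate 3 has 9.87 FPKM of Adipoq and 0 of Ucp1.

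Because Ucp1 and Lep were set against Adipoq in these ratios, the 250 bases upstream of their transcription starts are shown (RefSeq, GRCm38.p6, plus strand for all 3). Windows of 6 of the 10 members were used in the search. Both strands were searched for TTGCNNAA, a string that C/EBP factors can read. The CCAAT box and the TATA box, written TATAAA, were searched too. Capitals mark matches, and no match overlapped another. The Ucp1 window lies at chr8:83290098-83290347, the Adipoq window at chr16:23146286-23146535 and the Lep window at chr6:29059971-29060220.
Ucp1: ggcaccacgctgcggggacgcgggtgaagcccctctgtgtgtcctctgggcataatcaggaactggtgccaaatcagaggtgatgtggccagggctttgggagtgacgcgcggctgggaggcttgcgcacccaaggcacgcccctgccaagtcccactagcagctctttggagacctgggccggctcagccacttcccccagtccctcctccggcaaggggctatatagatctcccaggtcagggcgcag
Adipoq: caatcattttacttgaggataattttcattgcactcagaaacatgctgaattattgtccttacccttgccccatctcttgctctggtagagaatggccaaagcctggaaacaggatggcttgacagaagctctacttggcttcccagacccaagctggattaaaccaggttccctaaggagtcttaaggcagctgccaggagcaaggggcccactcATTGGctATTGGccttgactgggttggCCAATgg
Lep: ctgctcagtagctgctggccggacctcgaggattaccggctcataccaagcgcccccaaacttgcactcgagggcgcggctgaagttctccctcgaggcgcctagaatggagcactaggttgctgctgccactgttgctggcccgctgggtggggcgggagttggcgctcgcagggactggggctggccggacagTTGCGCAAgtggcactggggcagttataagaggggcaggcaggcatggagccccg
Adipoq had 3 CCAAT matches, of which those 34 to 30 and 27 to 23 bases upstream were on the minus strand, where the printed strand reads ATTGG, and that 7 to 3 bases upstream was on the plus strand. Lep had a TTGCNNAA match 55 to 48 bases upstream, and in Ucp1 none of the 3 strings occurred in this window. Among the windows searched but not shown, Plin1 had TTGCNNAA 187 to 180 and 58 to 51 bases upstream. Cidec had it 198 to 191 bases upstream, in its window at chr6:113434765-113435014. Of 32851 mouse promoter windows of the same length, 33.8% held the CCAAT box, 9.56% the C/EBP string and 12.4% the TATA box on either strand. These are matches of letters and not measured binding.

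StressPbs versus Ctrl sets defeated mice on vehicle beside undefeated mice. No injections are described for the Ctrl group, so defeat and daily injection cannot be told apart in this comparison. All 10 fat genes had a positive log2 fold change, with a median of 1.95 against -0.01 over all 20251 genes tested. With all 6 StressPbs mice the median over the members was 1.74. The members are not independent, since Pearson's r with Adipoq over 18 mice was 0.640 (Lep) to 0.984 (Cfd). Only Elovl3 passed the test (1 of 10 members, where 3.81% of all genes tested were called and 2.14% were called higher). Elovl3 rose by 5.98 on the log2 scale (SE, the standard error, 1.38, edgeR quasi-likelihood test, adjusted p = 0.0208). Ucp1 had 4.66 (SE 1.55, adjusted p = 0.106), Cidea 2.78 (1.47, 0.338), Fabp4 1.89 (0.79, 0.207) and Adipoq 1.79 (1.11, 0.431). The other 5 members had log2 fold changes of 1.52 (Lep) to 2.46 (Plin1) with adjusted p of 0.278 to 0.558. At an unadjusted p under 0.05 there were 4 members, against 17.9% of all genes tested. The call of Elovl3 was lost without StressPbs replicate 5 (4.11, adjusted p = 0.0744) and without Ctrl replicate 5 (5.90, adjusted p = 0.0514), and with all 6 StressPbs mice it was 5.73 (adjusted p = 0.0273). In limma on log2 FPKM the call was lost at pseudocounts of 0.01 (4.60, adjusted p = 0.0595), 0.1 (2.84, 0.0826) and 1 (1.09, 0.198), while DESeq2 called Elovl3 alone of the 10 (6.02, adjusted p = 0.000871), where it called 6.98% of all genes tested.

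For 9 of the 10 members the difference between StressPbs and Ctrl was smaller without replicate 5 of the stressed groups. Without StressPbs replicate 5 and StressFlx replicate 5, the 2 mice highest in Adipoq, the log2 fold change from Ctrl to StressPbs was 0.25 for Adipoq, 0.27 for Cidec, 0.59 for Fabp4, 0.68 for Cidea, 0.74 for Cfd, 1.07 for Adrb3, 1.17 for Plin1 and 1.79 for Lep. With all 17 mice the values of Adrb3, Plin1 and Lep had been 1.93, 2.46 and 1.52, so that Lep did not follow the others. Without the 2 mice, the value was 2.29 for Ucp1 (adjusted p = 0.426) and 4.11 for Elovl3 (adjusted p = 0.0556). No member was then called, where 454 genes were called higher and 298 lower of 20477 tested. The median over the 10 members was 0.91. When log2 Adipoq was added to the model as a covariate, Elovl3 had 3.67 (adjusted p = 0.137), Ucp1 2.56 (0.237), Cidea 1.06 (0.536), Plin1 0.73 (0.297), Cfd 0.50 (0.200) and Cidec -0.09 (0.879). In both of these fits Elovl3 and Ucp1 kept the largest differences of the members, but neither passed the threshold. With the covariate, 259 genes were called higher and 180 lower of 20250 tested.

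In StressFlx versus StressPbs, which asks what fluoxetine changed under stress, 0 of 10 fat genes were called (0.726% of all genes tested were), and 0 had an unadjusted p under 0.05 in edgeR, against 11.1% of all genes tested. DESeq2 called 0 as well, against 2.46% of all genes tested. Lep had the largest positive log2 fold change, 1.93 (SE 1.21, edgeR adjusted p = 0.619), and Elovl3 the largest negative one, -1.78 (SE 1.12, adjusted p = 0.617). Adipoq was at -0.05, and the median over the members was -0.16. That median was -1.63 without StressFlx replicate 5, with 9 of 10 members negative, and 1.16 without StressPbs replicate 5, with 10 of 10 positive, while Adipoq was at -1.54 and 1.50. The value of Lep was 0.13 without StressFlx replicate 5 and 4.15 without StressPbs replicate 1 (adjusted p = 0.239), so that 1 mouse on either side set it.

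In StressFlx versus Ctrl, which shares its groups with the other comparisons, all 10 members had positive log2 fold changes (median 2.17) and 0 were called, where 3.67% of all genes tested were. Elovl3 had 4.20 (SE 1.3, edgeR adjusted p = 0.0787), Ucp1 3.46 (1.45, 0.187) and Lep 3.44 (1.22, 0.120), and the other 7 members had 1.39 to 2.29. DESeq2 called Elovl3 here (4.24, adjusted p = 0.0233), where it called 7.97% of all genes tested, and edgeR called it without StressFlx replicate 3, the mouse without Ucp1 (adjusted p = 0.0491). At an unadjusted p under 0.05 there were 4 members in edgeR, against 20.4% of all genes tested. Without StressFlx replicate 5 the value of Lep was 1.65 (adjusted p = 0.449). Without StressFlx replicates 3 to 6, the 4 mice with lower totals, the values went from 0.50 for Cfd to 4.08 for Ucp1, with adjusted p of 0.365 for Elovl3 and more for the others. That fit kept only StressFlx replicates 1 and 2 in their group. It called 4 genes higher and 0 lower of 21863 tested, so its adjusted p says little about the members. Without StressPbs replicate 5 and StressFlx replicate 5, the median over the members was 0.66.

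**Figure D4:**
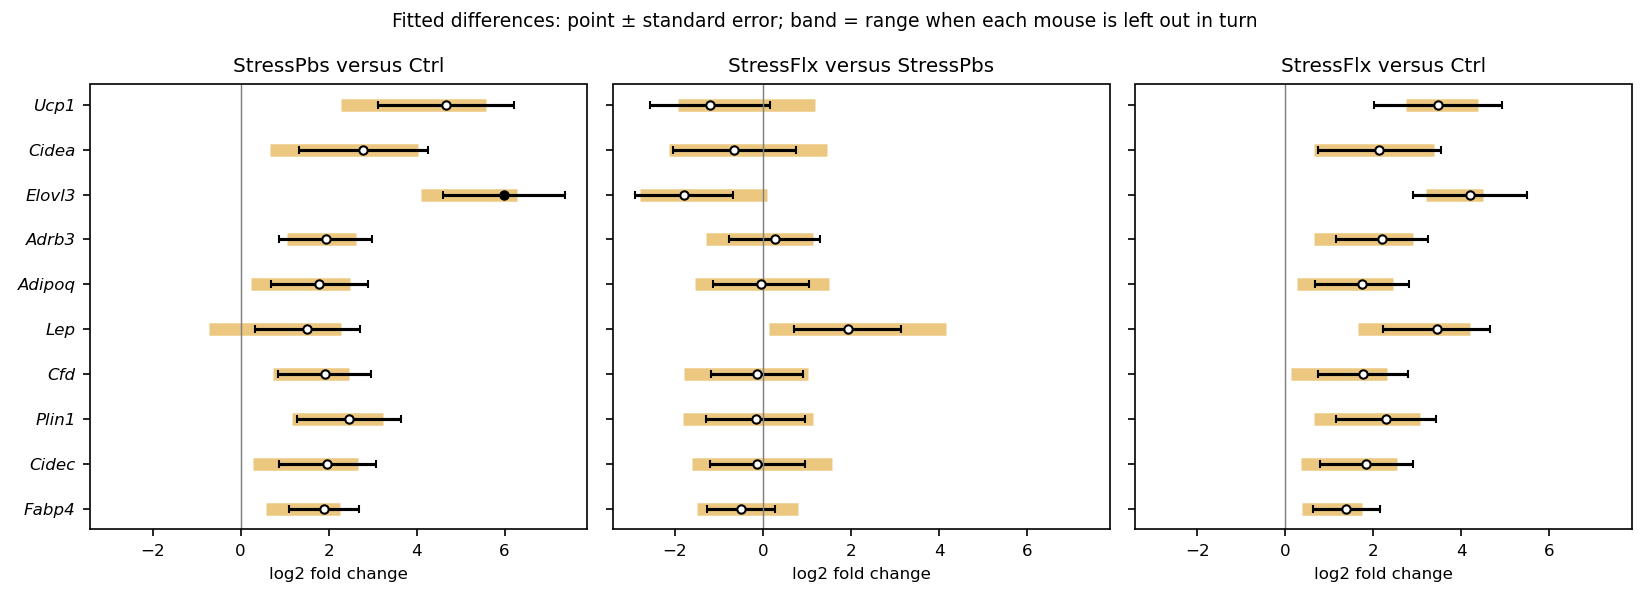
Log2 fold changes of the 10 fat genes (vertical) in the 3 comparisons, with standard errors (SE) derived from the edgeR F statistic as bars. A filled point marks an adjusted p under 0.05, and a band runs from the lowest to the highest value when each of the 17 mice was left out in turn. Only Elovl3 in StressPbs versus Ctrl is filled, and in StressFlx versus StressPbs 9 of the 10 bands cross 0.

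Other genes of brown and white adipocytes went the same way in part. Of 18 other adipocyte genes, all tested, edgeR called 1 higher in StressPbs versus Ctrl, where 2.14% of all genes tested were called higher. In that comparison 15 had positive and 3 negative log2 fold changes. With edgeR, 0 were called in StressFlx versus StressPbs and 0 in StressFlx versus Ctrl, against 0.726% and 3.67% of all genes tested. At an unadjusted p under 0.05 there were 8 of the 18 in StressPbs versus Ctrl, 0 in StressFlx versus StressPbs and 3 in StressFlx versus Ctrl, against 17.9%, 11.1% and 20.4% of all genes tested. DESeq2 called Fasn and Thrsp higher and Lpl lower in StressPbs versus Ctrl, 0 in StressFlx versus StressPbs, and Fasn and Thrsp higher in StressFlx versus Ctrl. Of all genes tested, it called 6.98%, 2.46% and 7.97% in these comparisons. The gene called by edgeR, Fasn, which makes palmitate and is named for having passed, rose by 3.28 on the log2 scale (SE 0.90, adjusted p = 0.0483). Fasn had 3.81 to 9.47 FPKM in the Ctrl mice. It had 77.0, 5.66, 16.8, 16.6, 191 and 4.94 FPKM in the StressPbs mice, so that the groups overlapped in replicates 2 and 6. Of the 5 most abundant genes of this list, Scd1, a fatty acid desaturase gene, had 1.76 (adjusted p = 0.169), Pnpla2, a triglyceride lipase gene, 0.98 (0.199) and Dgat2, which makes triglyceride, 0.46 (0.445). Cd36 (-0.36, 0.245) and Lpl (-0.60, 0.116), which take fatty acids into many tissues, had negative values and were between 17.1 and 107 FPKM in every mouse, including those with least Adipoq.

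Of 12 other brown fat genes, 11 were tested and 0 were called in any comparison with edgeR. In StressPbs versus Ctrl, StressFlx versus StressPbs and StressFlx versus Ctrl, 5, 1 and 0 had an unadjusted p under 0.05. The shares of all genes tested were 17.9%, 11.1% and 20.4%. DESeq2 called 1 (Acot11, higher), 0 and 0 in these comparisons. Of all genes tested, edgeR called 3.81%, 0.726% and 3.67%, and DESeq2 6.98%, 2.46% and 7.97%. Cox8b, a cytochrome c oxidase subunit gene of brown fat, heart and muscle, was between 0 and 23.7 FPKM in the Ctrl group and reached 242 in StressPbs replicate 5 and 122 in StressFlx replicate 5, with a log2 fold change of 3.08 from Ctrl to StressPbs (adjusted p = 0.265). Cox7a1, a related subunit gene, had 0.78 (0.348), Cpt1b, which brings fatty acids into mitochondria, 0.68 (0.228) and Letmd1 0.41 (0.328). Fabp3, a fatty acid carrier gene of heart, muscle and kidney too, was between 62.2 and 113 FPKM in all mice with -0.01 (0.983).

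The gene most like Ucp1 over the 18 mice was the member Cidea, with a Pearson's r of 0.923. Outside the members, the most alike were Cox8b (0.918), Otop1 (0.906), Clstn3 (0.904), Apoc1 (0.882) and Kcnk3 (0.876), of which Cox8b and Otop1 were on the list of other brown fat genes. Elovl3 was 11th among 18028 genes with 0.859. Without StressPbs replicate 5 and StressFlx replicate 2, the mice farthest from the median of Ucp1, the coefficients of these 5 genes were between 0.819 and 0.880. Genes outside the members that were most like Adipoq included Slc36a2 (0.966), Retn (0.962), Adig (0.953) and Car3 (0.938). Lep came 261st in likeness to Adipoq and 880th in likeness to Ucp1.

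Markers of other tissues and of blood cells were summed in each mouse, and 2 of these lists were highest in StressPbs replicate 5. The summed level of 10 adrenal genes was at most 2.80 FPKM, in StressPbs replicate 5, followed by 1.72 FPKM in StressFlx replicate 2, the third highest mouse for the fat genes, and its most abundant gene Star averaged 0.667 FPKM. The adrenal genes Cyp11b1, Cyp11a1 and Cyp21a1 were at most 0.420, 0.324 and 0.518 FPKM, each also highest in StressPbs replicate 5. Star and Cyp11b2 were highest there too. The rest of the list peaked elsewhere, Mc2r in StressPbs replicate 6 (0.685 FPKM), Chga, Th and Pnmt in StressFlx replicate 2, and Dbh in StressFlx replicate 5. Skeletal muscle genes summed to at most 2.43 FPKM (Mylpf averaging 0.681) and lymph node genes to at most 1.52 (Cd79a averaging 0.302). Peripheral nerve genes summed to at most 3.08 FPKM, in StressPbs replicate 5, followed by 2.22 FPKM in StressFlx replicate 5, with Mbp averaging 1.20. Mesothelium genes, led by Upk3b with 1.57 FPKM on average, and urothelium genes, led by Upk1a with 5.67, were highest in StressFlx replicate 4, with sums of 13.6 and 155 FPKM. That was the mouse with the highest ratio of Ucp1 to Adipoq, and StressPbs replicate 5 followed for urothelium with 49.3 FPKM. Red blood cell genes, led by Hbb-bs with 164 FPKM on average, were highest in StressPbs replicate 2 (2129 FPKM), which had 1.47 FPKM of Adipoq. Neutrophil genes, led by Lcn2, summed to between 8.75 and 28.5 FPKM in StressPbs replicates 1 to 5. The sum was 109 in StressPbs replicate 6, the mouse left out of the fits. It was between 2.01 and 4.46 in the Ctrl group and between 1.12 and 10.3 in the StressFlx group. In StressPbs versus Ctrl, 2 of the 5 tested, S100a8 and S100a9, were called higher, against 2.14% of all genes tested. Of this list, Lcn2 (49.2 FPKM), S100a9 (32.8), S100a8 (22.1) and Mmp8 (0.771) were highest in StressPbs replicate 6, so Lcn2 made up much of that sum. Retnlg was highest in StressPbs replicate 4 (4.36 FPKM). Ly6g was at most 0.171 FPKM, in Ctrl replicate 2. The part of fat left on the kidney in the differences of the 10 genes was not tested.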

How the data were processed

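Right kidney RNA of 18 mice was enriched for poly(A), copied into strand-marked libraries with molecular identifiers and sequenced in pairs. The study's methods name fastp, HISAT-3N and StringTie with GRCm38, and the submitters' processing notes list cutadapt 1.9, HISAT2 2.0.4, UMI-tools, StringTie 1.3.4d, DESeq2 and edgeR without roles. For every gene and mouse the authors deposited FPKM and expected counts, side by side in 1 table. The sources used here do not name the counting tool. The counts are whole, yet a value of 4 was held by 720 genes in the median mouse, a value of 3 by 484.5 and a value of 5 by 268, so they may rest on fewer fragments than counts.

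Groups came from the sample titles. Counts were compared with edgeR 4.0.16 (R 4.3.3) by the quasi-likelihood test in 1 model of the 3 groups, with TMM scaling, filterByExpr and Benjamini-Hochberg adjustment over the 20251 genes tested, at a threshold of 0.05. StressPbs replicate 6 was left out of the fits. The test gives no standard error, so SE was taken as the size of the log2 fold change over the square root of its F statistic. No label says that replicates differ in more than the mouse, so p values measure the spread between these kidneys. Ratios were compared as mean log2 of FPKM + 0.1 by exact two-sided permutation tests. Likeness was Pearson's r of log2(FPKM + 0.1) over 18 mice among tested genes with a mean of at least 0.1 FPKM. All 10 members were named, along with the 5 most abundant genes of the other adipocyte and brown fat lists, the 5 genes outside the members most like Ucp1 and Adipoq, and the most abundant gene of each other tissue list, except that 1 gene the rule named is not reported here. Fasn, Thrsp, G0s2, Acot11, S100a8, S100a9, Mmp8, Retnlg, Ly6g and the adrenal genes other than Star were named after their values were seen. The members and lists were chosen with earlier results of these data known. Alternatives were DESeq2 1.42.0, RLE or upper-quartile scaling, no filter, limma 3.58.1 on log2 FPKM with pseudocounts of 0.01, 0.1 and 1, all 18 mice, Adipoq as a covariate, a block on replicate numbers, each mouse left out, and, chosen after seeing the data, leaving out the 2 mice highest in Adipoq or the 4 mice with lower totals. The edgeR procedure was tested on simulated data.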

Additional observations from a re-analysis of the deposited data

Results flagged for a closer look

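Dixon's test for the highest or lowest of 6 mice was applied to each of the 10 fat genes in each of the 3 groups, and 17 of the 30 groups had a mouse past the critical value of 0.625. Chance puts about 1 in 20 groups past it where values are normally distributed. The rate for FPKM as skewed as these was not computed, and the 17 are not independent, since they come from 3 mice.

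StressPbs replicate 5 stood apart in its group for 8 genes. It had 213.6 FPKM of Ucp1 (0.251 to 20.8 in the other 5 StressPbs mice), 190.4 of Cidea (0.279 to 25.3), 8.71 of Elovl3 (0.117 to 1.40) and 87.4 of Adipoq (0.963 to 13.9). It had 664.3 FPKM of Cfd (10.1 to 151), 24.0 of Plin1 (0.254 to 6.97), 78.9 of Cidec (0.997 to 12.1) and 295.8 of Fabp4 (15.3 to 61.4).

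StressFlx replicate 5 also stood apart for 8 genes. It had 131.7 FPKM of Cidea (0.524 to 39.5 in the other 5 StressFlx mice), 102.9 of Adipoq (2.02 to 23.6), 4.78 of Lep (0.0890 to 0.598) and 858.4 of Cfd (15.9 to 138). It had 29.2 FPKM of Plin1 (0.484 to 6.53), 84.6 of Cidec (2.10 to 17.6), 226.1 of Fabp4 (15.0 to 66.7) and 12.3 of Adrb3 (0.123 to 2.54). Its Ucp1, at 54.6 FPKM, was below the 65.0 of StressFlx replicate 2 and did not stand apart.

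StressPbs replicate 1 stood apart for Lep alone, at 1.04 FPKM against 0 to 0.114 in the other 5 StressPbs mice. No group of the Ctrl mice had a value past the critical value.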

How the results depend on the processing

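The 1 fat gene called in StressPbs versus Ctrl, Elovl3, became 0 with Adipoq as a covariate, with limma at each of the 3 pseudocounts (adjusted p 0.0595 to 0.198), with a replicate block (log2 fold change 4.68, adjusted p = 0.0718), without the 2 mice highest in Adipoq, and without Ctrl replicate 5 or StressPbs replicate 5 (range 0 to 1 over mice left out). Genes called higher and lower in this comparison were 433 and 339 of 20251 tested in the main fit. They were 259 and 180 of 20250 with the covariate and 241 and 178 of 20251 with the block. With limma they were 366 and 375, 373 and 385, and 352 and 378 of 19587 at 0.01, 0.1 and 1. Without the 2 mice they were 454 and 298 of 20477. They were 284 and 196 of 20134 without Ctrl replicate 5, and 405 and 283 of 20624 without StressPbs replicate 5. The count of members called in StressFlx versus Ctrl was 1 with DESeq2 and 0 to 1 over mice left out. Of 18 pairs of deviations of same-numbered mice, 2 had r over 0.1 (-0.221 to 0.225). The highest was between StressPbs replicate 5 and StressFlx replicate 5. These pairs were not set against pairs with different numbers, so whether the numbers pair the mice was not tested. The other adipocyte genes called in StressPbs versus Ctrl went from 1, higher, to 3 with DESeq2 (2 higher, 1 lower) and to 3 without the 2 mice highest in Adipoq (1 higher, 2 lower, G0s2 and Lpl), to 0 with all 18 mice, limma, no filter, the replicate block or upper-quartile scaling, and were 0 to 3 over mice left out, with 0 higher and 1 lower without StressPbs replicate 5 (Lpl) or Ctrl replicate 3 (G0s2). DESeq2 called 2 of them in StressFlx versus Ctrl, and 1 other brown fat gene in StressPbs versus Ctrl (0 to 1 over mice left out). Of all genes tested in StressPbs versus Ctrl, 489 were called higher and 364 lower of 19946 with all 18 mice. These counts were 309 and 233 of 31985 without a filter and 314 and 449 of 20251 with upper-quartile scaling. Without Ctrl replicate 3 they were 916 and 746 of 20093. In StressFlx versus Ctrl they were 531 and 355 of 20133 without StressFlx replicate 3.

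The log2 ratio of Elovl3 to Ucp1 turned in StressPbs versus Ctrl at a pseudocount of 0.01 (0.085), and in StressFlx versus StressPbs at 0.01 (-0.17), with all 18 mice (-0.37), without the 4 mice with lower totals (-1.40) and over mice left out (-0.58 to 0.60). Lep to Adipoq turned in StressFlx versus Ctrl at a pseudocount of 1 (-0.49), without those 4 mice (-0.28) and over mice left out (-0.16 to 0.74). Ucp1 to Adipoq turned in StressFlx versus StressPbs without those 4 mice (0.27), and was 1.81 to 2.81 in StressPbs versus Ctrl over mice left out. None of these turned values passed the threshold.

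Of the member log2 fold changes, those of StressFlx versus StressPbs changed sign most. With all 18 mice Adipoq was 0.21, Cfd 0.11, Cidec 0.10 and Plin1 0.085. With the replicate block Adipoq was 0.011, Cidec 0.17 and Adrb3 -0.085. With the Adipoq covariate Adrb3 was -0.16, Cidea 0.036, Cidec 0.071 and Ucp1 0.064. Without the 2 mice highest in Adipoq, Adipoq was 0.013, Adrb3 -0.41, Cidec 0.093, Lep -0.14 and Ucp1 0.72. Adrb3 was also -0.28, -0.24 and -0.072 with limma at 0.01, 0.1 and 1, and -0.67 without the 4 mice with lower totals. Over mice left out the ranges were -1.54 to 1.50 for Adipoq, -1.28 to 1.13 for Adrb3, -1.78 to 1.03 for Cfd, -2.13 to 1.46 for Cidea, -1.61 to 1.57 for Cidec, -2.79 to 0.092 for Elovl3, -1.51 to 0.81 for Fabp4, -1.81 to 1.13 for Plin1 and -1.93 to 1.18 for Ucp1. In StressPbs versus Ctrl, Lep went from -0.71 to 2.27 over mice left out and Cidec was -0.087 with the Adipoq covariate, against -0.017 in StressFlx versus Ctrl. The cause of these changes was not tested. No fit of Adipoq itself with the Adipoq covariate was made.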
